A study of Mus musculus with 12 samples.

Results

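Proteasome subunit genes were taken as the protein-coding mouse genes whose symbols begin with Psma, Psmb, Psmc or Psmd, leaving out the 3 immunoproteasome subunits Psmb8, Psmb9 and Psmb10. This rule found 37 genes among the 54193 genes with entries in the count tables. Of these, 14 encode the constitutive core particle (Psma1 to Psma7 of the alpha rings and Psmb1 to Psmb7 of the beta rings) and 17 encode the regulatory particle. The regulatory genes were divided into the 6 ATPases Psmc1 to Psmc6, the 3 other base subunits Psmd1, Psmd2 and Psmd4, and the 8 lid subunits Psmd3, Psmd6, Psmd7, Psmd8, Psmd11, Psmd12, Psmd13 and Psmd14. The remaining 6 genes were the base assembly chaperones Psmd5, Psmd9 and Psmd10, the tissue-specific core subunits Psma8 and Psmb11, and Psmc3ip, which carries the prefix as a partner of Psmc3 but works in meiotic recombination. All 37 genes reached a mean normalised count of 10 over the libraries, the minimum for testing.

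RNA-seq was made from substantia nigra pars compacta, laser-microdissected from 12 mice at 1 week of age, all labelled male, with 1 mouse per library and 3 mice in each of 4 groups. The groups were OF1-WT and OF1-En1+/- mice of the outbred SwissOF1 strain (Oncins France 1), and C57-WT and C57-En1+/- mice of the C57Bl/6j strain. En1+/- mice are Engrailed-1 hemizygous: 1 copy of this homeobox gene, which midbrain dopaminergic neurons need for their survival, is disrupted in every cell. The C57-En1+/- line was derived from the OF1-En1+/- line by repeated backcrossing, and the comparisons ask whether the genotype, the strain or both together alter gene expression in the young substantia nigra.

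Library totals ranged from 13538864 to 168741283 estimated reads. The libraries held unequal levels of RNA from genes of dopaminergic neurons. Tyrosine hydroxylase (Th), the rate-limiting enzyme of dopamine synthesis, stood at 2718 CPM (reads scaled to a fixed library total) in OF1-En1+/- replicate 2 and 3673 in C57-WT replicate 2, and at most 43.2 in each of the other 10. En1 followed the same split, with 21.8 and 32.3 CPM in those 2 libraries and at most 0.48 elsewhere, so its level did not check the genotype labels. C57-En1+/- replicate 2, labelled male, had 42.6 CPM of Xist, the RNA of the inactive X chromosome, against at most 1.1 in the others, and 0 CPM of the Y-linked Ddx3y. That library also had the highest sums of 6 oligodendrocyte markers (6272 CPM against 327 to 3529) and of 6 neuronal markers (19120 CPM against 6447 to 9992). Subunit medians and edgeR calls that moved when these 3 libraries were left out are given with and without them. Fits by DESeq2 and the medians of other pathway lists are given with all 12 libraries only. In bulk tissue, fewer cells of a type and less RNA per cell cannot be told apart.

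The proteasome degrades proteins that carry ubiquitin chains. Its core particle is a barrel of outer alpha rings, which gate the entrance, and inner beta rings, in which Psmb6, Psmb7 and Psmb5 carry the caspase-like, trypsin-like and chymotrypsin-like active sites. The regulatory particle caps the barrel: its lid and base bind and deubiquitinate the substrate, and its ATPase ring unfolds and threads it into the core. The subunits of both particles are made in coordinated amounts, and proteasome function is much studied in dopaminergic neurons because ubiquitin-positive inclusions mark Parkinson's disease.

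Levels of different subunits were compared per transcript length, in the deposited TPM (transcript reads scaled for length and library total), summed per gene. Psmb6 was the most abundant, with a mean of 947 ± 78.7 TPM (SD, n = 12) and a range of 852 to 1130. Psma3 followed with 890.0 ± 111 TPM. The 7 highest genes were all core subunits, namely Psmb6, Psma3, Psma7 (672 TPM), Psmb3 (633 TPM), Psmb2 (581 TPM), Psmb5 (519 ± 136 TPM) and Psma6 (453 TPM). Psmc1, an ATPase that helps to open the core gate, led the regulatory particle at 356 ± 36.9 TPM. The lowest of the 31 subunits of both particles was the lid subunit Psmd3, at 91.6 ± 25.3 TPM, 10.3-fold under Psmb6. The lowest core subunit was Psma2 (163 TPM). The third active site subunit, Psmb7, stood at 236 ± 22.7 TPM. The median of the gene means was 398 TPM for the core and 227 TPM for the regulatory particle.

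The levels formed a gradual series rather than steps. All 30 pairs of neighbours in the order of mean TPM had overlapping ranges over the 12 libraries. In 2 of those pairs the order was nevertheless the same in 12 of 12 libraries (Psma6 above Psmc1, and Psmc3 above Psmd11). The base chaperones, which assist assembly and leave the finished particle, lay below every subunit in mean level, at 64.6 TPM for Psmd9, 51.3 for Psmd5 and 36.4 for Psmd10.

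**Figure D1:**
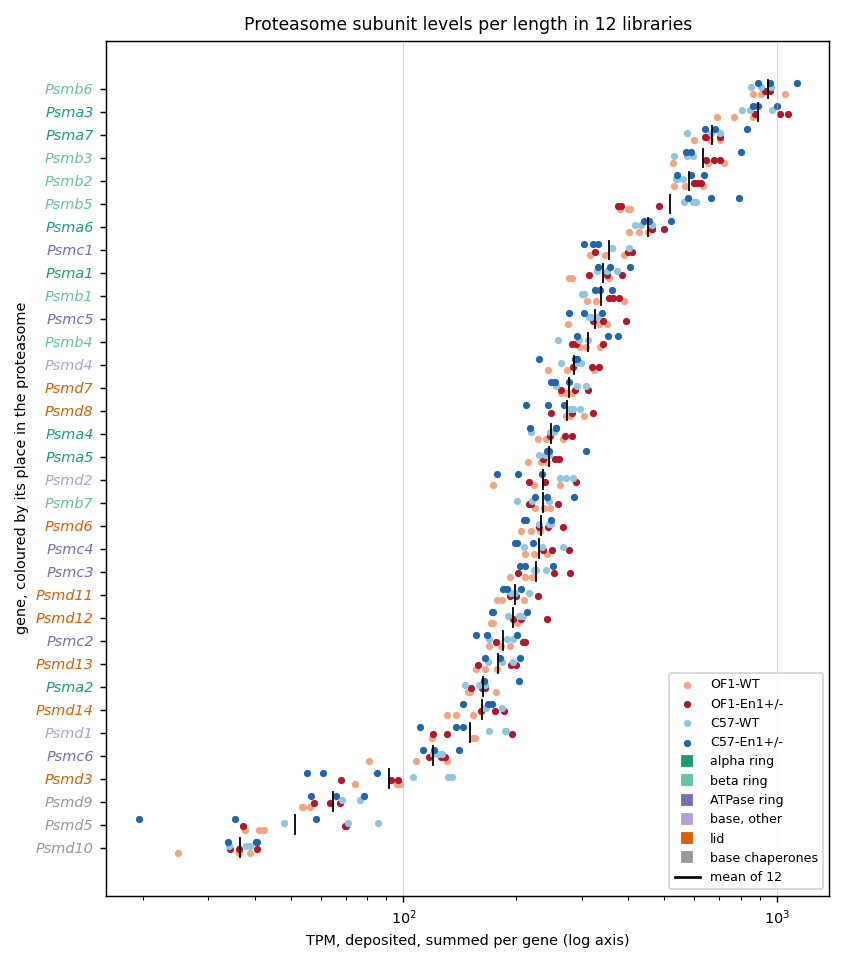
Deposited TPM on a log axis for the 31 proteasome subunits and 3 base chaperones, ordered by the mean of 12 libraries (black ticks). Points are single libraries coloured by group and gene names are coloured by class. Core subunits fill the 7 highest places, from 947 TPM for Psmb6, and Psmb5 shows its OF1 libraries apart from its C57 libraries.

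The genes that do not belong to the constitutive particle were near the limit of detection or low. Psma8, an alpha subunit of the testis, had a mean of 1.21 TPM with a range of 0.0284 to 5.24. In CPM it had 0.149, 2.22 and 0.581 in OF1-WT, 0.386, 2.43 and 4.69 in OF1-En1+/-, 0.0269, 0.916 and 0.0245 in C57-WT, and 0.665, 0.803 and 0.866 in C57-En1+/- mice, and the ranges of all groups overlapped. Psmb11, the beta subunit of thymic cortical epithelium, had 0.227 TPM and at most 0.744. Psmc3ip had 11.1 TPM and 3.75 to 10.9 CPM, and its exons share 1109 bases with those of Mlx (52.5 CPM) on the opposite strand. None of the 3 passed the test in any comparison, and their fitted changes had standard errors of 0.43 to 1.37 on the log2 scale in the 2 genotype comparisons.

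Psmb5 varied most between libraries among the 31 subunits, with a coefficient of variation of 35.8% in CPM against a median of 18.8% over the core and 14.6% over the regulatory particle. It was the only member called in any comparison, and it was lower in OF1. The OF1-WT libraries had 178, 218 and 181 CPM of Psmb5 and the OF1-En1+/- libraries 222, 161 and 179. The C57-WT libraries had 234, 264 and 291 CPM and the C57-En1+/- libraries 440.0, 420.0 and 283. Every OF1 library was thus below every C57 library. The share of all genes with such a split between strains was not computed.

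By the quasi-likelihood test of edgeR, with p-values adjusted over 18017 genes after Benjamini and Hochberg, Psmb5 was lower in OF1-En1+/- than in C57-En1+/- mice by a log2 fold change of -1.02 (SE 0.20, adjusted p = 0.0379), where 0.966% of all genes were called. Averaged over both genotypes the difference was -0.74 (SE 0.14, adjusted p = 0.0174), with 2.01% of genes called. Between wild-type mice it was -0.45 (SE 0.20, adjusted p = 0.567), and was not called, with 1.02% of genes called. The call in En1+/- mice was lost when any library was left out other than OF1-WT replicate 2 or C57-En1+/- replicate 3, with adjusted p up to 0.176. The averaged call was lost without OF1-WT replicate 1 or 3, OF1-En1+/- replicate 2 or 3, C57-WT replicate 3 or C57-En1+/- replicate 1, with adjusted p of 0.0528 to 0.0611.

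Reads of Psmb5 can be shared with Gm3375, a processed copy of its messenger RNA annotated as a pseudogene. Psmb5 lies at chr14:54850776-54855481 on the minus strand of GRCm39, and Gm3375 at chr7:3230842-3231636 on the plus strand. The copy spans the 795 coding bases of Psmb5 with 787 identical bases (99.0%) and 8 substitutions, which are G6A, G106A, C297T, C306T, T387A, C417T, T465C and C660A, with the base of Psmb5 first and positions counted from 1 at the first base of the Psmb5 start codon. In the copy, a stop codon falls at codon 220 of 265. The windows below are 2 stretches of 60 bases in which the genes differ at 2 positions each. They are shown because such differing bases are among those that can tell reads of the genes apart. Differing bases are in capitals and each sequence is on its coding strand. The windows are coding exon sequence of Psmb5 at chr14:54854171-54854230 and chr14:54854060-54854119, and lie in the copy at chr7:3231088-3231147 and chr7:3231199-3231258.
Psmb5, coding bases 247 to 306: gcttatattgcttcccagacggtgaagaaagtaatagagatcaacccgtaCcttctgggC
Gm3375, same stretch: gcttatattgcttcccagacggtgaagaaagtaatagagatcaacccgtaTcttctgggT
Psmb5, coding bases 358 to 417: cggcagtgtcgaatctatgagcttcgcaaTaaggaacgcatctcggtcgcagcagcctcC
Gm3375, same stretch: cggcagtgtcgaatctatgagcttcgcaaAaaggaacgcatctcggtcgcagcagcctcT

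Gm3375 was present in OF1 and almost absent in C57. It stood at 143, 175 and 143 CPM in OF1-WT and at 183, 142 and 153 CPM in OF1-En1+/- mice. In the 6 C57 libraries it had 0 to 0.183 CPM. Psmb5 and Gm3375 together had 321, 392 and 325 CPM in OF1-WT, 405, 304 and 332 in OF1-En1+/-, 234, 264 and 291 in C57-WT, and 440.0, 421 and 283 in C57-En1+/- mice. The summed ranges of OF1 (304 to 405) and C57 (234 to 440.0) overlapped.

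With the reads of the copy added to Psmb5, the strain difference was no longer called. It was 0.13 averaged over genotypes (adjusted p = 0.961) and 0.40 between wild-type mice (adjusted p = 0.637), both now higher in OF1, and -0.14 between En1+/- mice (adjusted p = 0.939). The split of Psmb5 reads between its annotated transcripts also followed the strain. Psmb5-202, the shorter transcript with 622 bases against 899 for Psmb5-201, received 7.57% to 13.7% of the Psmb5 reads in the 6 OF1 libraries and 0% to 0.738% in the 6 C57 libraries. The reference sequence is that of C57Bl/6j, and how OF1 reads from either locus were assigned was not tested.

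**Figure D2:**
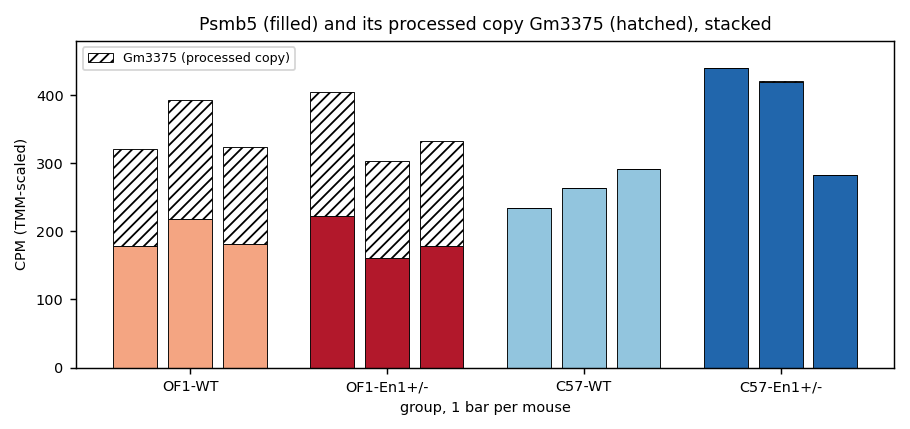
CPM of Psmb5 (filled) with that of its processed copy Gm3375 stacked on it (hatched), 1 bar per mouse in 4 groups. The filled bars of the 6 OF1 mice (161 to 222) lie under those of the 6 C57 mice (234 to 440.0), and the stacked totals of both strains overlap.

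No other member had a copy of this kind at a comparable level. A search for pseudogene transcripts with at least 95% identity over at least 200 bases found 15 copies of 9 members. Gm14048, a copy of the lid gene Psmd11, had 1.91 to 3.83 CPM in the 12 libraries.

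The comparison of C57-En1+/- with C57-WT mice asks what hemizygosity changes in the strain described as resistant. By the edgeR fit of counts, every core subunit was higher in the C57-En1+/- mean, by log2 fold changes of 0.35 to 0.56. Their median was 0.47, but none was called. Core means were also higher in deposited TPM, though only slightly for some subunits. Psma4 went from a C57-WT mean of 240 TPM to 244, Psma1 from 351 to 365 and Psma3 from 876 to 920. Others rose more, as Psmb4 did from 290 to 341 and Psmb3 from 568 to 654. The smallest adjusted p among the 37 genes was 0.52, and 0% of the 18017 genes passed edgeR's adjusted test. At an unadjusted p under 0.05, 13 of the 14 core subunits were higher, against 5.35% of all genes, and 1 of the 37 members, Psmd3, was lower, against 3.54% of all genes. The core count depended on the method. It was 13 with DESeq2, 10 with offsets for transcript length and 7 with limma voom. With only the 6 libraries compared it was 4, and with no filter on low counts 3. Without OF1-En1+/- replicate 2, a library outside this comparison, it was 6. DESeq2 called 0.411% of all genes and 0 members. The median over all tested genes was 0.00. The subunits were measured in the same 6 libraries and are not independent of each other. Marker lists also shifted between the same groups. The median log2 fold change was 2.12 for 6 oligodendrocyte markers (6 of 6 above 0) and -3.70 for 6 dopaminergic markers (0 of 6). It was 0.57 for 5 endothelial, 0.41 for 5 microglial and 0.78 for 5 proliferation markers (5 of 5 each). Astrocyte (0.26, 4 of 6), mural and fibroblast (0.45, 4 of 5) and neuronal markers (0.20, 5 of 6) had positive medians, and subthalamic markers -0.99 (1 of 5). Summed oligodendrocyte levels overlapped, with 387 to 1034 CPM in C57-WT and 327 to 6272 in C57-En1+/- mice. So did dopaminergic levels, with 115 to 18386 and 31.1 to 540 CPM. Endothelial sums, at 63.9 to 92.4 and 104 to 155 CPM, did not. None of these markers was called or at 0 in every library, and their part in the subunit values was not tested.

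Alpha ring subunits differed by 0.35 to 0.49, with a median of 0.44. Psma5 had the highest value of the ring, with 155, 169 and 178 CPM in C57-WT and 215, 303 and 187 in C57-En1+/- mice, so that the groups did not overlap (log2 fold change 0.49, SE 0.20, adjusted p = 0.549). Psma3, whose tail lies near the substrate gate, had the lowest. It stood at 338, 430.0 and 379 CPM against 458, 593 and 415, and these ranges overlapped (0.35, SE 0.18, adjusted p = 0.615). Of the 7 genes, Psma1, Psma4 and Psma5 had every C57-En1+/- library above every C57-WT library.

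Beta ring subunits differed by 0.44 to 0.56, with a median of 0.52. The structural subunit Psmb4 had 147, 139 and 187 CPM in C57-WT and 239, 286 and 176 in C57-En1+/- mice, and these overlapped (0.56, SE 0.21, adjusted p = 0.536). Psmb3 had 173, 194 and 225 CPM against 255, 400.0 and 219. Among the active site subunits, Psmb7 had 131, 154 and 142 CPM in C57-WT and 181, 258 and 171 in C57-En1+/- mice, with no overlap (0.52, SE 0.18, adjusted p = 0.53). Its exons share 2782 bases with those of Nek6 (38.9 CPM) on the opposite strand. Psmb6 had 287, 317 and 377 CPM against 398, 580.0 and 376, overlapping by the lowest C57-En1+/- library (0.47, SE 0.21, adjusted p = 0.559). Psmb5 differed by 0.54 (SE 0.20, adjusted p = 0.539) and its groups overlapped. Psmb1, Psmb2 and Psmb7 were the beta genes whose groups did not overlap, which made 6 of 14 for the core, where 7.44% of all genes had every C57-En1+/- library above every C57-WT library.

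By the same fit of counts, the regulatory particle genes found by the rule differed less, with a median of 0.24 and 14 of 17 above 0. The 6 ATPases ranged from 0.09 for Psmc1 to 0.34 for Psmc6. Psmc6 had 156, 172 and 185 CPM in C57-WT and 214, 263 and 173 in C57-En1+/- mice, which overlapped (SE 0.19, adjusted p = 0.637). Psmc1 had 310.0, 338 and 422 CPM against 363, 429 and 343. In deposited TPM most regulatory means were instead lower with hemizygosity. Psmd1 went from a C57-WT mean of 182 TPM to 131, Psmd2 from 273 to 205 and Psmc1 from 375 to 319. The exceptions were Psmc6 (124 to 125) and Psmd13 (183 to 184).

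The base subunits that hold the ubiquitin receptors and the scaffold did not share a direction. Psmd4, a receptor for ubiquitin chains, had 206, 195 and 244 CPM in C57-WT and 268, 304 and 189 in C57-En1+/- mice (0.24). Psmd1, a scaffold of the base, had 304, 357 and 411 CPM against 279, 391 and 307 (-0.14). Psmd2, which docks shuttle proteins, had 468, 530.0 and 625 CPM against 443, 555 and 509 (-0.11). All 3 overlapped between genotypes.

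In the lid, 7 of 8 genes were above 0 and Psmd3 was below. Psmd3 had 171, 144 and 203 CPM in C57-WT and 105, 106 and 128 in C57-En1+/- mice, so that every C57-En1+/- library was lower, as for 6.93% of all genes (-0.61, SE 0.19, adjusted p = 0.52). It was the member with the lowest value of this comparison. Psmd13 had the highest value of the lid, with 145, 138 and 183 CPM against 189, 250 and 156 (0.35, SE 0.22, adjusted p = 0.669), and its exons share 356 bases with those of Sirt3 (190.0 CPM) on the opposite strand, which the library kit does not separate. Psmd8 had 209, 227 and 267 CPM against 248, 242 and 239 (0.05), and its coefficient of variation over the 12 libraries (10.4%) was the lowest of the 31 subunits. Psmd14, the deubiquitinase of the lid, had 151, 147 and 168 CPM against 167, 223 and 170.0 (0.27, SE 0.16, adjusted p = 0.666).

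The base chaperones also differed among themselves. Psmd10 (gankyrin) had 28.9, 31.6 and 31.3 CPM in C57-WT and 35.2, 46.8 and 37.1 in C57-En1+/- mice, without overlap (0.38, SE 0.22, adjusted p = 0.653). Psmd5 had 130, 141 and 97.1 CPM against 61.2, 84.2 and 120.0 (-0.47, SE 0.27, adjusted p = 0.638). Psmd9 had 64.5, 72.5 and 79.3 CPM against 79.6, 101 and 73.8 (0.24).

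The core values in C57 rested in large part on C57-En1+/- replicate 2, the library with Xist and high oligodendrocyte and neuronal markers. It held the highest CPM of all 12 libraries for 12 of 14 core subunits and for 10 of 17 regulatory subunits. C57-WT replicate 1 held the lowest for 10 core and 6 regulatory subunits. Without C57-En1+/- replicate 2, the core median was 0.24, the regulatory median 0.04, and 0 core subunits had an unadjusted p under 0.05, while 14 of 14 core subunits were still above 0. Without C57-WT replicate 1 the core median was 0.41, also with 0 core subunits at that level, and without C57-WT replicate 2, the library with high Th, it was 0.46 with 3. With both libraries of high Th left out together, the core median was 0.42, with 1 core subunit at that level. The part of cell composition in these values was not tested.

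Between OF1-En1+/- and OF1-WT mice no subunit was called. The core median was -0.04 (range -0.21 to 0.14, 6 of 14 above 0) and the regulatory median 0.05 (range -0.12 to 0.23, 12 of 17 above 0). These medians changed sign with single libraries. Without OF1-WT replicate 1 they were -0.12 and -0.04, and without OF1-WT replicate 2 they were 0.09 and 0.11. None of the 37 genes passed an unadjusted p of 0.05, against 4.7% of all genes higher and 4.59% lower. None had groups without overlap either, against 7.76% of all genes higher and 8% lower. The smallest adjusted p of a member was 0.705 in edgeR, which called 0% of all genes, and DESeq2, which called 1.12% of them, called 0 members. Some marker lists separated the OF1 genotypes. The summed level of 5 subthalamic markers was 284 to 1407 CPM in OF1-WT and 20.8 to 37.8 in OF1-En1+/- mice. That of 6 oligodendrocyte markers was 629 to 1326 and 1721 to 3529 CPM, and that of 5 proliferation markers 13.5 to 30.4 and 41.2 to 54.8 CPM. Dopaminergic, astrocyte, microglial, endothelial, mural and fibroblast, and neuronal sums overlapped between the OF1 genotypes. None of these markers was at 0 in every library, and their part in the subunit values was not tested.

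Among the subunits and chaperones, the highest values in OF1 were those of Psmd14 and Psmd5, both at 0.23. Psmd14 had 151, 155 and 145 CPM in OF1-WT and 180.0, 154 and 193 in OF1-En1+/- mice, overlapping by 1 library (SE 0.16, adjusted p = 0.705). Psmd5 had 94.4, 86.0 and 90.6 CPM against 75.0, 111 and 131. The lowest value of the 31 subunits was that of Psmb4, with 167, 239 and 198 CPM against 172, 181 and 170.0 (-0.21, SE 0.21, adjusted p = 0.803). Among the active sites, Psmb6 had 331, 504 and 392 CPM in OF1-WT and 366, 350.0 and 386 in OF1-En1+/- mice (-0.15), and Psmb7 had 155, 199 and 185 CPM against 154, 172 and 162 (-0.14). Both overlapped. The 6 ATPases were all above 0, by 0.03 to 0.21, each with a standard error of 0.18 to 0.21. The base and lid medians were 0.05 and 0.03.

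**Figure D3:**
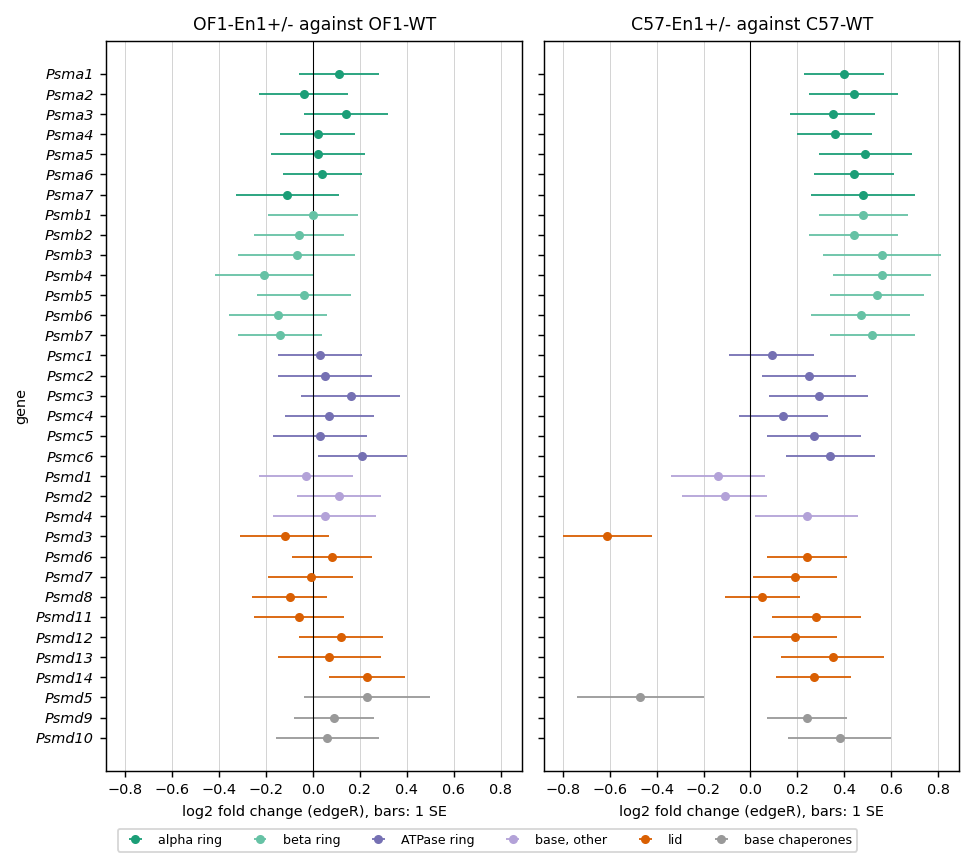
Log2 fold change of En1+/- against WT mice for 31 subunits and 3 base chaperones in OF1 (left) and C57 (right), from edgeR, with bars of 1 standard error and colours for classes. In C57 all 14 core subunits lie between 0.35 and 0.56 and Psmd3 lies at -0.61; in OF1 the core lies between -0.21 and 0.14.

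The test of the difference itself, the interaction of genotype and strain (C57 minus OF1), called none of the members, and edgeR called 0% and DESeq2 0.233% of all genes. The core median was 0.49, with 14 of 14 subunits above 0 and a range of 0.21 to 0.77, and the regulatory median 0.13. Psmb4 (0.77, SE 0.29, adjusted p = 0.655) and Psmb7 (0.66, SE 0.26, adjusted p = 0.655) were the 2 of 37 members above 0 with an unadjusted p under 0.05, against 4.42% of all genes. No member was below 0 at that level, against 2.79% of all genes. Without C57-En1+/- replicate 2 the core median was 0.32 with 14 of 14 above 0, the regulatory median was -0.04 with 6 of 17 above 0, and 0 subunits had an unadjusted p under 0.05. The core count at that level, 2 with all libraries, was also 0 without OF1-WT replicate 2, and was 7 without OF1-WT replicate 1, 4 without C57-WT replicate 3 and 9 without C57-En1+/- replicate 3. The genotype difference in C57 was therefore not shown to differ from that in OF1 for any subunit.

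The balance of both particles was described by the mean log2 CPM of the 14 core subunits minus that of the 17 regulatory subunits in each library. It was 0.12, 0.29 and 0.11 in OF1-WT, 0.22, 0.01 and 0.04 in OF1-En1+/-, 0.05, 0.12 and -0.02 in C57-WT, and 0.37, 0.45 and 0.28 in C57-En1+/- mice. The C57-En1+/- libraries were all above the C57-WT libraries, and above the OF1-En1+/- libraries. The highest OF1-WT library lay within the C57-En1+/- range. Group means were 0.17 ± 0.10, 0.09 ± 0.11, 0.05 ± 0.07 and 0.37 ± 0.08 (SD, n = 3 each), and En1+/- minus WT was 0.32 in C57 and -0.08 in OF1, where the pooled SD within groups was 0.09. Without C57-En1+/- replicate 2 the difference in C57 was 0.28. As a ratio of summed TPM, core over regulatory, C57-En1+/- mice had 2.0, 2.11 and 1.92 and the other 9 libraries 1.58 to 1.88. No test was made on this score, whose members were chosen with these data known.

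In log2 CPM the core part of the score separated the C57 groups and the regulatory part did not. The core mean was 7.73, 7.83 and 7.97 log2 CPM in C57-WT and 8.23, 8.62 and 8.02 in C57-En1+/- mice, without overlap. The regulatory mean was 7.68, 7.72 and 7.99 against 7.87, 8.17 and 7.74, with overlap. In summed TPM both parts separated the groups, in opposite directions. Core sums were 6280, 6409 and 6438 TPM in C57-WT and 6698, 7791 and 6545 in C57-En1+/- mice. Regulatory sums were 3904, 3766 and 4054 against 3347, 3685 and 3412, lower in every C57-En1+/- library. Which particle differed thus depended on the scaling.

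**Figure D4:**
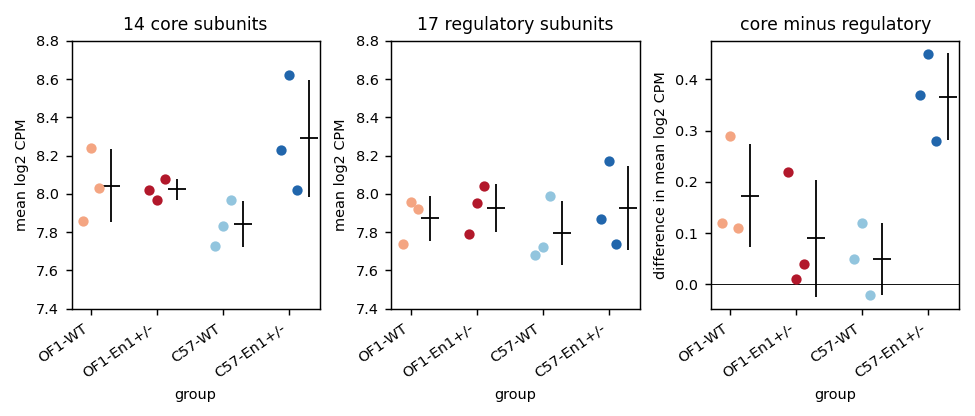
Mean log2 CPM of the 14 core subunits, of the 17 regulatory particle subunits, and their difference, by group. Each point is 1 library. The difference is 0.28 to 0.45 in C57-En1+/- libraries and -0.02 to 0.12 in C57-WT libraries.

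Core transcripts are shorter than those of the regulatory particle, and transcript length moved with the genotype difference over all genes in C57. The mean effective length had a median of 732 bases in the core (467 for Psmb3 to 2179 for Psma2) and 1273 bases in the regulatory particle (934 for Psmd11 to 2661 for Psmd1). Among all tested protein-coding genes, the median log2 fold change of C57-En1+/- against C57-WT was 0.51 for the 885 genes of up to 600 bases, 0.26 for 600 to 1000 bases, 0.12 for 1000 to 1500, -0.02 for 1500 to 2500 and -0.12 for longer genes. The length classes were chosen after the values were seen. In the shortest class the 5 core subunits had a median of 0.47, below that of the class. The 7 core subunits of 600 to 1000 bases had a median of 0.48 and the single regulatory subunit there, Psmd11, had 0.28. In the class of 1000 to 1500 bases the 12 regulatory subunits had a median of 0.24 and the single core subunit 0.48. From 1500 to 2500 bases the single core subunit, Psma2, had 0.44 and the 2 regulatory subunits a median of -0.13. The 2 regulatory subunits in the longest class had a median of -0.12, that of the class.

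In OF1 the length medians ran the other way among short genes, at -0.22, -0.06, 0.02, 0.08 and -0.00 from the shortest to the longest class, and the core subunits had medians of -0.06 and 0.02 in the shortest 2 classes. For the interaction the class medians were 0.74, 0.34, 0.09, -0.10 and -0.13, with core medians of 0.57 and 0.47 in the shortest 2. In those 2 classes OF1-WT minus C57-WT had medians of 0.42 and 0.21 (core 0.32 and 0.26). OF1-En1+/- minus C57-En1+/- had -0.31 and -0.12 there (core -0.20 and -0.28). With offsets for the transcript length of each gene and library, the core median in C57 was 0.46 and the regulatory median 0.20. These offsets adjust only for a gene's length differing between libraries, so they cannot address the trend with length between genes. The part of transcript length in the core values was not tested.

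**Figure D5:**
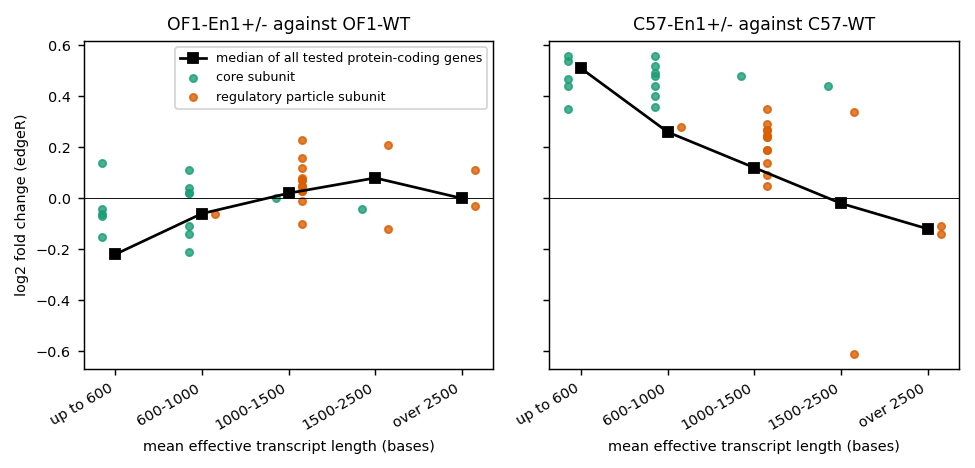
Log2 fold change of En1+/- against WT mice in OF1 (left) and C57 (right) by class of mean effective transcript length in bases. Squares are medians of all tested protein-coding genes and points are single subunits; in C57 the median falls from 0.51 for genes of up to 600 bases to -0.12 for those over 2500.

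The strain comparisons of the core depended on single libraries. Between OF1-WT and C57-WT mice the core median was 0.27, with 13 of 14 subunits higher in OF1 and Psmb5 the exception, and the regulatory median 0.10. Without OF1-WT replicate 2 these were 0.16 and 0.04. Between OF1-En1+/- and C57-En1+/- mice it was -0.27, with 0 of 14 higher in OF1, and the regulatory median -0.00. Without C57-En1+/- replicate 2 the core median was -0.06, with 5 of 14 higher in OF1, and the regulatory median 0.17, with 16 of 17 higher. Without C57-En1+/- replicate 3 they were -0.40 and -0.14. Averaged over genotypes the medians were -0.02 and 0.04, and without C57-En1+/- replicate 2 they were 0.08 and 0.13. These comparisons use the same libraries as the genotype comparisons and add no independent evidence. Apart from Psmb5, no member was called between strains by edgeR or by DESeq2, which called 2.53%, 2.46% and 3.62% of all genes in wild-type mice, in En1+/- mice and averaged.

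Averaged over genotypes, the other core subunits differed between strains by at most 0.17, the value of Psmb1 (SE 0.13, adjusted p = 0.891). Psmb1 had 346, 522 and 388 CPM in OF1-WT, 423, 411 and 425 in OF1-En1+/-, 288, 309 and 346 in C57-WT, and 432, 519 and 368 in C57-En1+/- mice. Its OF1-WT libraries lay above its C57-WT libraries, with the nearest values equal after rounding, and its En1+/- groups overlapped. In the alpha ring, Psma4 (0.11, SE 0.11) and Psma1 (-0.11, SE 0.12) marked the ends. Psma4 had 166 to 208 CPM in the 6 OF1 libraries and 149 to 232 in the 6 C57 libraries, and Psma1 had 217 to 268 and 228 to 379.

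Regulatory subunits differed between strains by -0.14 for Psmc6 (SE 0.13) to 0.14 for Psmd8 (SE 0.11). Psmc6 had 135 to 199 CPM in OF1 and 156 to 263 in C57 libraries, and Psmd8 had 225 to 295 and 209 to 267. The ATPase Psmc4 had 191, 243 and 234 CPM in OF1-WT and 178, 174 and 246 in C57-WT mice (0.13 averaged, SE 0.13). The chaperone Psmd9 had 62.3, 62.0 and 68.7 CPM in OF1-WT, 67.4, 71.9 and 66.8 in OF1-En1+/-, 64.5, 72.5 and 79.3 in C57-WT, and 79.6, 101 and 73.8 in C57-En1+/- mice (-0.23 averaged, SE 0.12, adjusted p = 0.667). Its OF1-En1+/- libraries were all below the C57-En1+/- libraries, while its wild-type groups overlapped.

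Averaged over strains, En1+/- minus WT had a core median of 0.22 and a regulatory median of 0.14 (0.11 and 0.05 without C57-En1+/- replicate 2), with 0 members called in either tool, where edgeR called 0% and DESeq2 1.33% of all genes.

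Promoter sequence was examined for the element by which Nfe2l1 and Nfe2l2, the factors known to induce proteasome genes under stress, bind DNA. RefSeq promoters (GRCm38.p6) were given for 30 of the 37 genes, without Psma8, Psmb1, Psmb2, Psmb7, Psmc3, Psmd3 and Psmd7. In the 250 bases before the start, on either strand, the letters TGACNNNGC were found in 5 of 30 members (16.7%), against 11.5% of all 27025 symbols in the table. These were Psmb5, Psmb6, Psmc6, Psmd12 and Psmd9. The form TGACTCAGC, which the former letters include, was found in 0 of 30, against 0.426%. The letters CCAAT were found in 13 of 30 (43.3%), against 37.5%. The 2 matches in genes of active site subunits are shown with the matched letters in capitals, at chr14:54618014-54618062 on the minus strand for Psmb5, where the match begins 47 bases before the start, and at chr11:70525328-70525356 on the plus strand for Psmb6, 9 bases before it.
Psmb5 promoter: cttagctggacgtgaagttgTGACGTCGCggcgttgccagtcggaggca
Psmb6 promoter: cagaggcggactaaagagagTGACGGAGC
By class, the shorter letters were present in 2 of 11 core and 2 of 14 regulatory promoters, and CCAAT in 6 of 11 and 4 of 14. A match of letters is a description of the window and not a binding site.

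The other genes of the pathway were followed in 7 lists, with 37 of 38 listed genes present and tested. The lists were 2 further regulatory subunits, 3 immunoproteasome subunits, 5 genes of activators and an inhibitor, 5 core assembly chaperones, 11 deubiquitinases and shuttle factors, 5 regulators of proteasome gene transcription, and 6 genes of ubiquitin and its activating enzymes. In C57-En1+/- against C57-WT mice none of the 37 was called by edgeR, and the list medians were 0.35, 0.41, 0.24, 0.55, -0.00, -0.20 and 0.00 in that order. In OF1 they were -0.20, -0.05, -0.09, -0.10, -0.03, 0.21 and -0.23. The 2 further regulatory subunits were far apart in C57, with Sem1 at 0.77 (SE 0.28, edgeR adjusted p = 0.531) and Adrm1 at -0.08. The assembly chaperones of the core had the highest of these list medians in C57, and the transcription regulators the highest in OF1. C57-En1+/- replicate 2 had the highest C57 value of Pomp (293 CPM), Psmg2 (71.1), Psmg3 (51.5) and Psmg4 (25.3), but not of Psmg1 (31.8). No chaperone median without that library is given. The regulator median in OF1 was the value of Ddi2 (SE 0.45), which had a mean of 7.05 CPM over all libraries.

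Between strains edgeR called 2 of the 37 genes of these lists, both lower in OF1. Of all genes it called 1.02% in wild-type mice, 0.966% in En1+/- mice and 2.01% averaged. Rad23b, which carries ubiquitinated proteins to the proteasome, had 14.6, 15.5 and 13.8 CPM in OF1-WT, 11.0, 11.2 and 13.6 in OF1-En1+/-, 31.2, 26.2 and 27.2 in C57-WT, and 36.3, 27.9 and 30 in C57-En1+/- mice. Every OF1 library was below every C57 library, a split whose share over all genes was not computed. Averaged over genotypes it differed by -1.17 (SE 0.14, adjusted p = 0.00056), and between En1+/- mice by -1.39 (SE 0.21, adjusted p = 0.00494); the latter had an adjusted p of 0.0621 without the 2 libraries of high Th. The search found no copy of Rad23b.

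Vcp, the ATPase that extracts ubiquitinated proteins and is needed to activate Nfe2l1, differed by -1.05 averaged (SE 0.15, adjusted p = 0.00193) and by -1.14 between wild-type mice (SE 0.21, adjusted p = 0.0216). The latter was lost without OF1-WT replicate 1 or 2 or C57-WT replicate 2 or 3, with adjusted p of 0.0863 to 0.108. Vcp had 368, 345 and 531 CPM in OF1-WT, 320.0, 458 and 359 in OF1-En1+/-, 808, 970.0 and 968 in C57-WT, and 613, 795 and 793 in C57-En1+/- mice. As for Psmb5, an annotated copy was present only in OF1 at more than trace level. Vcp-rs, at chrX:103389435-103391840 of GRCm39, had 283 to 554 CPM in the 6 OF1 libraries and at most 0.266 in the 6 C57 libraries. With its reads added, the averaged difference of Vcp was -0.04 (adjusted p = 0.997) and that between wild-type mice -0.15 (adjusted p = 0.915).

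DESeq2, fitted with all 12 libraries only, called 3 further genes of these lists, which edgeR did not. Of all genes it called 0.411% for genotype in C57, 2.46% for strain in En1+/- mice and 1.33% for genotype averaged. Psme4, an activator that caps the core in place of the regulatory particle, had 16, 11.9 and 12.4 CPM in C57-WT and 32.8, 26.6 and 20.3 in C57-En1+/- mice, without overlap (DESeq2 0.98, adjusted p = 0.0422; edgeR 0.99, adjusted p = 0.52). Its OF1 libraries had 10.1 to 13.8 CPM. Ubqln2, a shuttle factor, had 17.3, 19.1 and 17.8 CPM in OF1-En1+/- and 55.0, 28.4 and 39.5 in C57-En1+/- mice (DESeq2 -1.17, adjusted p = 0.0187; edgeR -1.18, adjusted p = 0.136). Nfe2l2, the regulator of the antioxidant response, had 6.98, 9.19 and 6.69 CPM in OF1-WT and 13.2, 17.2 and 10.8 in OF1-En1+/- mice, and 10.7, 9.38 and 6.49 in C57-WT and 12.7, 18.5 and 12.5 in C57-En1+/- mice. Within each strain every En1+/- library was above every WT library of Nfe2l2, as for 7.76% of all genes in OF1 and 7.44% in C57. Averaged over strains, DESeq2 gave 0.78 (adjusted p = 0.0499) and edgeR an adjusted p of 0.335.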

How the data were processed

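Libraries were made with SMART-Seq v4 and Nextera XT, a kit that does not mark strand. The authors quantified paired-end reads with Salmon against the GENCODE transcripts of GRCm39. They deposited estimated counts and TPM per transcript. TPM were summed per gene as deposited. The estimated counts were added up for each gene, then rounded; 139555 of 140790 transcripts (99.1%) matched the annotation used here. Samples were grouped by the strain and genotype labels, with 1 mouse per library. Genes with a mean normalised count of at least 10 (18017) were tested with edgeR 4.0.16 (TMM, robust quasi-likelihood, all 12 libraries, 1 mean per group). Genes were called at a Benjamini-Hochberg adjusted p under 0.05 over all tested genes. CPM are TMM-scaled, and log2 CPM used a prior count of 2. DESeq2 1.42.0 and limma 3.58.1 were alternatives. Copies were sought with blastn 2.17.0 among 13329 pseudogene transcripts. The fits were tested on simulated data. No 2 libraries of a group agreed within counting noise, so none was treated as a repeat deposit.

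The members and gene lists were chosen with earlier results of these data known. Values in each library were given for the 3 active site subunits and for members called in any comparison. They were also given for members with the highest and lowest fold change in each class, and with the highest and lowest TPM. Other pathway genes were named where called. Gm3375 and Vcp-rs were named as annotated copies of called genes, and Gm14048 as a copy of Psmd11, which was not called. The depth of 13538864 to 168741283 reads covers counting error only.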

Additional observations from a re-analysis of the deposited data

How the results depend on the processing

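The count of members called between OF1-En1+/- and C57-En1+/- mice fell from 1 to 0 when only protein-coding genes were tested (Psmb5 -1.02, adjusted p 0.0718), with offsets for transcript length (-0.89, 0.073), with only the 6 libraries compared (-1.02, 0.178), with reads of processed copies added (-0.14, 0.939) and without the 2 libraries of high Th (-0.92, 0.221), the last chosen after seeing the data. Averaged over genotypes the count fell from 1 to 0 with copies added (0.961) and without the 2 libraries of high Th (-0.69, 0.103). Leaving out single libraries gave 0 to 1 in both. With copies added Psmb5 reversed to 0.13 averaged and 0.40 in wild-type mice. The core median in C57 moved from 0.47 to 0.24 without C57-En1+/- replicate 2. The difference between core and regulatory means in C57 ranged from 0.24 to 0.36 over its alternatives, and all 31 subunits stayed within 2 places of their TPM rank. In C57, Psmd8 was at -0.01 with no filter on low counts. Leaving out single libraries, values near 0 changed sign for genotype in C57 for Psmc1 (-0.03 to 0.22), Psmd2 (-0.20 to 0.01) and Psmd8 (-0.02 to 0.16), and in OF1 for Psmb6 (-0.29 to 0.02). Medians that changed sign were those of the core for genotype in OF1 (-0.12 to 0.09) and strain averaged (-0.07 to 0.08), and of the regulatory particle for genotype in OF1 (-0.04 to 0.11), the interaction (-0.04 to 0.26) and strain in En1+/- mice (-0.14 to 0.17). In all, 193 counts and score values that answer a comparison and 1451 further values kept their direction and their side of the threshold; 23 and 32 lost a call, and among the further values 4 gained one, 9 reversed and 1 moved.

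Over all genes, edgeR, DESeq2 and voom called 0, 202 and 0 genes for genotype in OF1, 0, 74 and 0 in C57, 0, 240 and 0 averaged, 183, 456 and 242 for strain in WT, 174, 444 and 136 in En1+/-, 362, 653 and 437 averaged, and 0, 42 and 0 for the interaction. At an unadjusted p under 0.05 edgeR had 1674, 1602, 2045 and 1300 genes for genotype in OF1, in C57, averaged, and for the interaction. No paired analysis was possible because the labels give no shared replicate numbers. Depth limits Psma8 and Psmb11, which had standard errors of 1.03 to 1.37 on the log2 scale in the genotype comparisons of each strain.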
